A study of Mus musculus with 3 samples.

Results

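The 47 genes described here are cell cycle genes of the mouse, grouped as 13 genes of S phase, 28 genes of mitosis, 3 D cyclins and 3 inhibitors of cyclin-dependent kinases. They came from a list of 48 gene names, in which Cdk1 stands under its current and its older name, Cdc2a, and they were found by matching the gene name of each probe on the array. The array carried 28090 gene names, of which 17892 were bright enough to be tested. All 47 genes were tested, and all 47 were well above background with cKO and with control RNA on every array, with no saturated spot. The list was drawn up by function, with earlier results of these data known.

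The RNA came from whole ovaries of 10-week-old C57Bl/6J females, killed at ZT12, when the lights went off, on day 3.5 after copulation. The conditional knockout females, called cKO, were Bmal1 fx/fx and carried Cre recombinase under the sf-1 promoter, which is active in the steroid-producing cells of the ovary and not in all of its cells. The controls were Bmal1 fx/fx without Cre, so both genotypes carried the floxed alleles. Each of 3 arrays carried 1 pool of 3 cKO animals in cy3 and 1 pool of 3 control animals in Cy5, which makes 9 animals of each genotype in 3 pools. The dyes were never swapped, so genotype and dye cannot be told apart. Every ratio below is the log2 ratio of cKO over control within a spot, 1 brightest probe per gene, and means over arrays carry an SD with n = 3.

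A cell that divides copies its DNA in S phase and separates the copies in mitosis. E2F factors switch on the genes of DNA replication before S phase, and MuvB complexes with B-MYB and FOXM1 switch on the mitosis genes later in the cycle. D cyclins with their kinases start the cycle in response to growth signals, and inhibitors of the Cip/Kip family, the products of Cdkn1a, Cdkn1b and Cdkn1c, hold the kinases back. In the ovary, granulosa cells of growing follicles divide and stop dividing when they become luteal cells.

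Arntl, which encodes BMAL1, had log2 ratios of 0.26, 0.10 and -0.28 on arrays 1 to 3 and did not separate the genotypes (limma, adjusted p = 1.0). The sources used here do not say whether its single probe lies within the deleted part of the gene. Dbp, a direct target of BMAL1, was lower in cKO on every array, at -1.50, -1.50 and -1.55, and did not pass 0.05 (limma, adjusted p = 0.0759). Nr5a1, which encodes SF-1, had 1.00, 1.21 and -0.18. Array 1 was on 1 slide and arrays 2 and 3 on the other. Over all genes tested, the ratios of arrays 1 and 2 were correlated at r = 0.493, those of arrays 1 and 3 at 0.0987 and those of arrays 2 and 3 at -0.162, as a description across genes. The SD of the ratios over genes was 0.563, 0.576 and 0.716, so array 3 was the most spread. Replicate spots of a probe differed by far less, with a median SD of 0.048, 0.051 and 0.062.

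The genes of S phase and of mitosis shared a sign within each array as a block, but the block lay on opposite sides of 0 on different arrays. On array 1 all 13 S phase genes and all 28 mitosis genes were lower in the cKO pool, and on array 2 the same held for 12 of 13 and 28 of 28. On array 3, 11 of 13 S phase genes and 26 of 28 mitosis genes were higher in the cKO pool. Of all genes tested, 56.0% were lower on array 1, 52.4% were lower on array 2 and 52.6% were higher on array 3. The pattern lower, lower, higher was shown by 36 of the 47 genes (76.6%), by 10 of 13 S phase genes (76.9%) and by 26 of 28 mitosis genes (92.9%), against 25.2% of all genes tested. None of the 41 S phase and mitosis genes passed the test of the mean over the 3 arrays (limma, adjusted p = 1.0 for each), where 0.302% of all genes did.

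**Figure D1:**
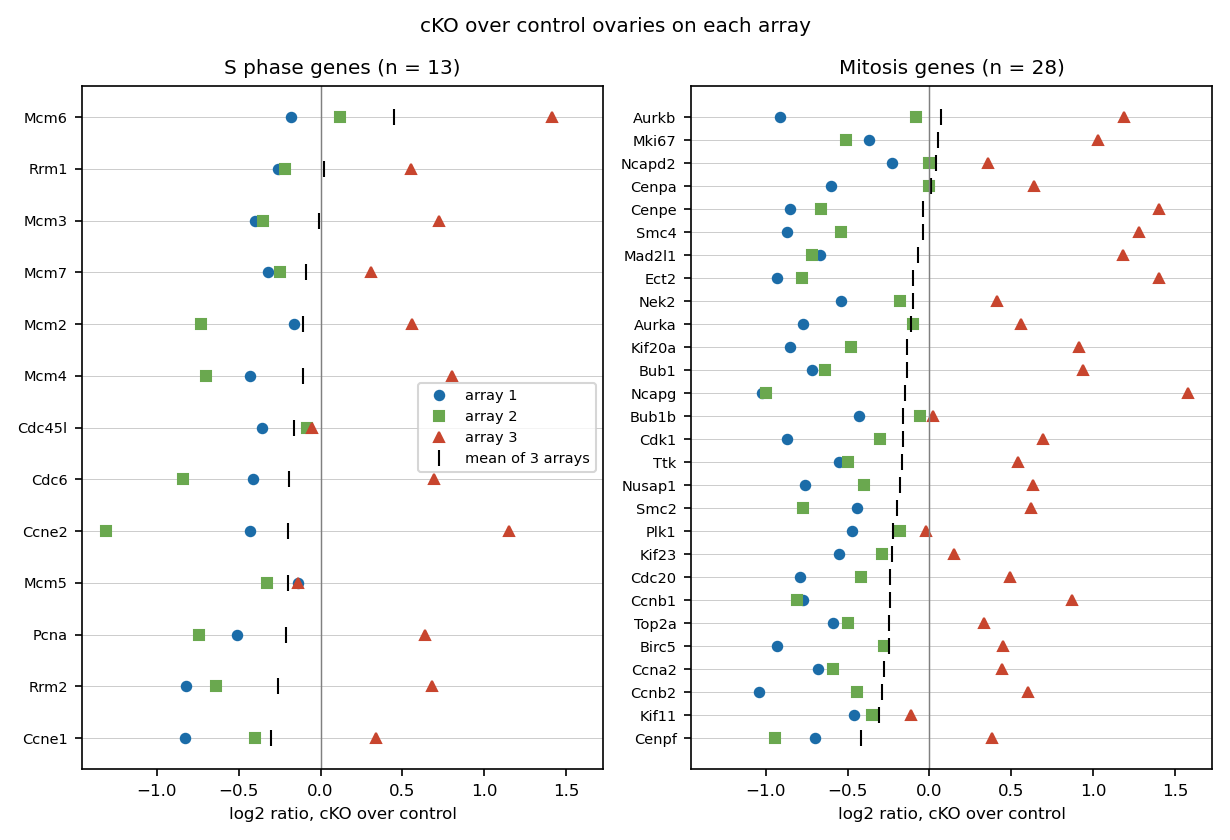
Log2 ratio of cKO over control (horizontal axis) for each of the 13 S phase genes (left) and 28 mitosis genes (right) on arrays 1, 2 and 3, with a black tick at the mean of the 3 arrays. Points of arrays 1 and 2 lie left of or at 0 except for Mcm6 on array 2, and points of array 3 lie right of 0 except for Mcm5, Cdc45l, Kif11 and Plk1.

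The medians show the size of the swing. The S phase genes had a median log2 ratio of -0.40, -0.40 and 0.64 on arrays 1 to 3, and the mitosis genes one of -0.71, -0.46 and 0.61. The median of all genes tested stayed near 0, at -0.05, -0.03 and 0.04, with quartiles of -0.30 and 0.20, -0.34 and 0.29, and -0.42 and 0.45. The share of all genes with a ratio below the S phase median was 17.9%, 21.0% and 83.7%, and below the mitosis median 6.07%, 18% and 82.5%. Over the 3 arrays the median of the gene means was -0.16 in both groups, against -0.02 over all genes.

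**Figure D2:**
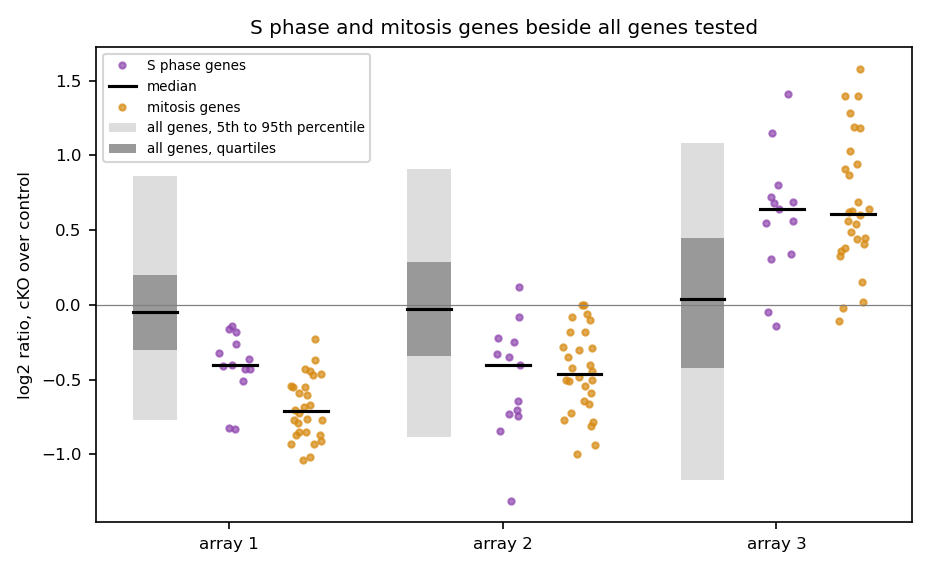
Log2 ratio of cKO over control (vertical axis) on each array for the 13 S phase genes and the 28 mitosis genes (points), beside the 5th to 95th percentile (light bars) and quartiles (dark bars) of all genes tested, with black lines at medians. Most genes of both groups lie below the median of all genes on arrays 1 and 2 and above it on array 3.

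The S phase median lay above the mitosis median on every array, and the gap was small on arrays 2 and 3. The S phase median minus the mitosis median was 0.31 on array 1, 0.05 on array 2 and 0.03 on array 3. These differences per array had an SD of 0.16. The difference of the medians of the gene means, which is another measure, was -0.01. The widest gap, on array 1, came with the mitosis genes reaching -1.04 (Ccnb2) and the S phase genes reaching only -0.83 (Ccne1). With background correction by normexp and loess in place of the scanner's ratios, the S phase median minus the mitosis median was 0.41, 0.07 and 0.17 on arrays 1 to 3. Across the 41 genes, those with the lower ratio on arrays 1 and 2 tended to have the higher ratio on array 3, with r = -0.399 between arrays 1 and 3 and -0.406 between arrays 2 and 3, and r = 0.224 between arrays 1 and 2. These correlations are descriptions over 41 genes that share their libraries.

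The array 3 value came with a high level in the cKO pool on that array. To see this, the signal of each channel was divided by the 75th percentile of that channel on that array and compared between the 3 pools of 1 genotype, which carry the same dye. All 13 S phase genes and all 28 mitosis genes had their highest cKO level in the cKO pool of array 3, against 39.3% of all genes tested. The cKO pool of array 1 had the lowest level for 12 of 13 S phase genes and for 28 of 28 mitosis genes, against 6485 of all 17892 genes tested. Relative to the mean of the 3 cKO pools, the median log2 level of the S phase genes was -0.41, -0.11 and 0.56 in the cKO pools of arrays 1 to 3, and that of the mitosis genes -0.57, -0.12 and 0.71. In the control pools the same medians were -0.07, 0.13 and -0.06 for S phase genes and -0.07, 0.11 and -0.09 for mitosis genes. The control pools were not level either. That of array 2 had the highest control level for 10 of 13 S phase genes and 16 of 28 mitosis genes, against 34.7% of all genes tested. The median SD over pools was 0.54 in cKO pools and 0.32 in control pools for S phase genes, and 0.66 in cKO pools and 0.24 in control pools for mitosis genes. Over all genes it was 0.27 in cKO pools and 0.30 in control pools. Both channels of an array had been dye-normalised against each other before deposit, so these levels are not independent of the ratios, and pool and array cannot be told apart.

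**Figure D3:**
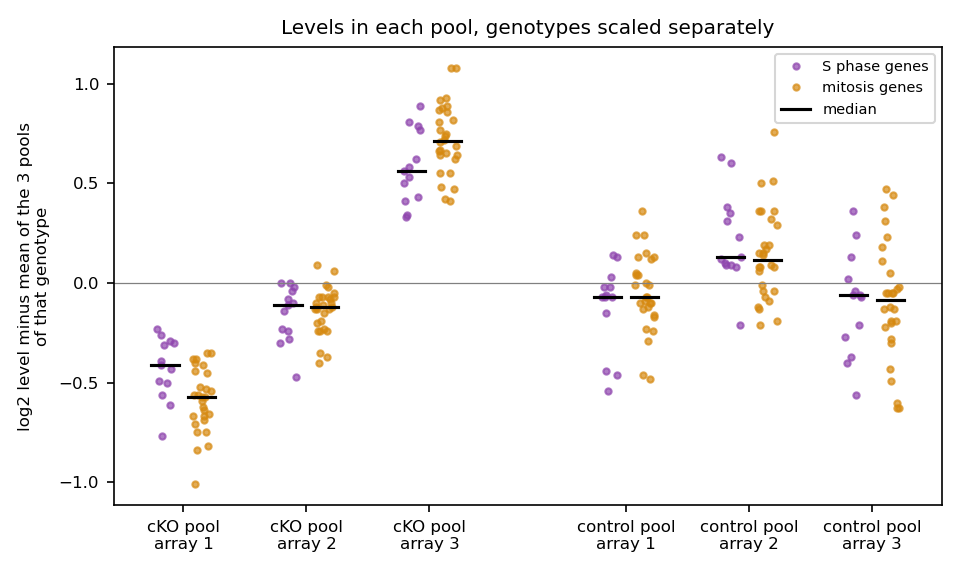
Log2 level of each S phase and mitosis gene in each pool (vertical axis), as the deviation from the mean of the 3 pools of its genotype, with cKO pools on the left, control pools on the right and black lines at medians. In the cKO pool of array 3 all 41 genes lie above 0, and in that of array 1 all 41 lie below 0, while the control medians stay between -0.09 and 0.13.

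Among the S phase genes, the 6 subunits of the MCM helicase that unwinds DNA, Mcm2 to Mcm7, did not all follow the block. Mcm6 had log2 ratios of -0.18, 0.12 and 1.41, the highest mean of the S phase genes at 0.45 ± 0.84. Its processed signal was 12639, 14189 and 32207 in the cKO pools, against 14345, 13034 and 12134 in the control pools. Processed signals, here and below, were not scaled between arrays and serve to compare pools within an array. Thus the cKO pool stood out on array 3, and on the other arrays the pools were close. Mcm5 had -0.14, -0.33 and -0.14, so it was lower on every array and did not follow the swing. Cdc45l, whose product joins the MCM ring to the active helicase, had -0.36, -0.08 and -0.05, also lower on every array. Mcm3 had -0.40, -0.35 and 0.72, with a mean of -0.01 ± 0.63. Mcm2, Mcm4 and Mcm7 had array 3 values of 0.56, 0.80 and 0.31 and were lower on arrays 1 and 2.

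Pcna, the sliding clamp of DNA polymerase, is read by 10 replicate spots and so is among the best measured of these genes. Its processed signal was 15042, 14006 and 29815 in the cKO pools, against 21498, 23410 and 19170 in the control pools. The log2 ratios were -0.51, -0.74 and 0.64, each with an SD of 0.03 over replicate spots, and the mean was -0.21 ± 0.74. The spot SD is technical and leaves out the difference between pools. Rrm1 and Rrm2 encode the subunits of ribonucleotide reductase, which makes the building blocks of DNA. Rrm1 had -0.26, -0.22 and 0.55 (mean 0.02 ± 0.46), and Rrm2 -0.82, -0.64 and 0.68 (mean -0.26 ± 0.82). Cyclin E, which starts S phase, is encoded by Ccne1 and Ccne2. Ccne1 had the lowest mean of the S phase genes, with -0.83, -0.40 and 0.34 (mean -0.30 ± 0.59). Ccne2 had the lowest single ratio, -1.31 on array 2, beside -0.43 on array 1 and 1.15 on array 3. Cdc6, which loads the helicase on origins, had -0.41, -0.84 and 0.69.

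Among the mitosis genes, Mki67, the source of the Ki-67 proliferation marker, had log2 ratios of -0.37, -0.51 and 1.03 (mean 0.05 ± 0.85). Its processed signal was 7851, 7200 and 25783 in the cKO pools, against 10146, 10250 and 12588 in the control pools. The cKO pool was below its control on arrays 1 and 2 and about 2.05 times as bright on array 3. Ccnb1 and Ccnb2 encode the B cyclins, and Cdk1 the kinase they drive into mitosis. Ccnb2 had -1.04, -0.44 and 0.60 (mean -0.29 ± 0.83), Ccnb1 -0.77, -0.81 and 0.87, and Cdk1 -0.87, -0.30 and 0.69. Ccna2, encoding cyclin A2, had -0.68, -0.59 and 0.44. The cyclins and their kinase therefore shared the sign of the block on each array.

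The genes that differed most between arrays came from both groups. Ncapg, a condensin subunit, had a processed signal of 981, 1576 and 5038 in the cKO pools, against 1989, 3150 and 1682 in the control pools. Its log2 ratios were -1.02, -1.0 and 1.58, a range over arrays of 2.60 and the largest of the 41 genes. Ccne2, of the S phase genes, followed with a range of 2.45. Among the mitosis genes Ect2, which sets the cleavage furrow, had -0.93, -0.78 and 1.40, Cenpe, a kinetochore motor, -0.85, -0.66 and 1.40, and Smc4, a condensin subunit, -0.87, -0.54 and 1.28. Mad2l1, a spindle checkpoint protein, had -0.67, -0.72 and 1.18. Not every condensin gene swung as far, since Smc2 had -0.44, -0.77 and 0.62 and Ncapd2 -0.23, -0.00 and 0.36.

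Aurkb, the kinase of the chromosomal passenger complex, had the highest mean of the mitosis genes, at 0.07 ± 1.06, from -0.91, -0.08 and 1.19. Birc5, a partner in that complex, had -0.93, -0.28 and 0.45, and Aurka, the centrosomal Aurora kinase, -0.77, -0.10 and 0.56. Cenpf, a kinetochore protein, had the lowest mean, at -0.42 ± 0.70, from -0.70, -0.94 and 0.38. Kif11, the motor that separates spindle poles, was lower on every array, with -0.46, -0.35 and -0.11 (mean -0.31 ± 0.18). Plk1, a master kinase of mitosis, was lower on every array too, with -0.47, -0.18 and -0.02. Bub1b, a checkpoint kinase, reached only 0.02 on array 3. Top2a, the topoisomerase that untangles chromosomes, had -0.59, -0.50 and 0.33, and Cdc20, which activates the anaphase-promoting complex, -0.79, -0.42 and 0.49. The remaining mitosis genes, Cenpa, Kif20a, Kif23, Nusap1, Ttk and Nek2, lay between -0.85 and -0.00 on arrays 1 and 2 and between 0.15 and 0.91 on array 3.

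Probe choice bore on single genes more than on the block. The 47 genes had 81 probes, of which 72 passed the filter and 9 did not, and 20 genes had more than 1 passing probe. The 25 further probes of these genes had the sign of the brightest probe in 23, 25 and 22 cases on arrays 1 to 3, and 20 of the 25 were lower on arrays 1 and 2 and higher on array 3. Bub1 and Ncapd2, of the mitosis genes, are shown because their passing probes had opposite signs on array 3. Ccnd2 also had such a probe, at 0.16 on array 3 against -0.15 for its used probe. The used Bub1 probe gave -0.72, -0.64 and 0.94, against -0.57, -0.37 and -0.44 for its other probe, and the used Ncapd2 probe gave -0.23, -0.00 and 0.36, against -0.30, -0.39 and -0.48 for its other probe. The array's file gives these 60-base probes as follows, all in lower case because no stretch within them is singled out.
Bub1, used (A_51_P123405): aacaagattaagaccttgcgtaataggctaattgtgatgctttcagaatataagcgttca
Bub1, other (A_52_P259126): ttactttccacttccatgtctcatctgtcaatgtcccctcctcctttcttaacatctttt
Ncapd2, used (A_51_P202074): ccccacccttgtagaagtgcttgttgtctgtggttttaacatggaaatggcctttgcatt
Ncapd2, other (A_52_P139399): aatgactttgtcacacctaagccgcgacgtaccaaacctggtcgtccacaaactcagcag
The other Bub1 probe is annotated to a different transcript record than the used one, while both Ncapd2 probes are annotated to the same record. Median GC content was 40.0% for S phase probes and 41.7% for mitosis probes, against 43.3% over all genes, and across all genes the ratio was correlated with GC content at r = 0.0443, 0.0806 and -0.186 on arrays 1 to 3, as a description.

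The CDK inhibitors did not follow the block, and Cdkn1a was the only one of the 47 genes higher in cKO on all 3 arrays. Cdkn1a encodes an inhibitor that the tumour suppressor p53 and differentiation signals induce. Its processed signal was 6054, 1741 and 3142 in the cKO pools, against 761, 646 and 964 in the control pools. The log2 ratios were 2.99, 1.43 and 1.71, with an SD over its 10 replicate spots of 0.04, 0.03 and 0.04. The mean was 2.04 ± 0.83, a 4.12-fold higher level in cKO, and it did not pass the test over all genes (limma, adjusted p = 0.138). Of all genes tested, 11.5% were higher on all 3 arrays. By limma it passed with the slide as a block (mean 2.28, adjusted p = 2.54e-05) and without array 2 (mean 2.35, adjusted p = 1.35e-05). In both of these fits the spread rested on 2 arrays only, beside a variance that limma shares over genes. They passed 227 and 270 of all genes, against 54 in the main fit. Cdkn1a did not pass without array 1 (mean 1.57, adjusted p = 0.177) or without array 3 (mean 2.21, adjusted p = 0.148), nor with normexp and loess (mean 1.81, adjusted p = 0.214). Only 1 probe reads Cdkn1a.
Cdkn1a, used (A_51_P363947): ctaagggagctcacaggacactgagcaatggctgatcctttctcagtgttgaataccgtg

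Cdkn1b was lower in cKO on all 3 arrays by its used probe. Its product restrains cyclin-dependent kinases in resting cells, luteal cells among them. Its processed signal was 8022, 6589 and 5014 in the cKO pools, against 11375, 10177 and 17515 in the control pools. The log2 ratios were -0.50, -0.63 and -1.80 with a mean of -0.98 ± 0.72, which did not pass (limma, adjusted p = 0.608). The mean was -0.57 without array 3 (adjusted p = 0.227) and -0.66 over both passing probes (adjusted p = 0.656). The other passing probe, read on 10 spots, gave -0.24, -0.68 and -0.09, so it had the same sign but not the low value on array 3. Both probes are shown for that reason.
Cdkn1b, used (A_51_P146126): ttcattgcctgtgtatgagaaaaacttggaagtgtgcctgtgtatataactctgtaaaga
Cdkn1b, other (A_51_P169173): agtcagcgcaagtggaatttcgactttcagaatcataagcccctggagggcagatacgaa
Of the 47 genes, 0 passed the adjusted threshold and 2, Cdkn1a and Cdkn1b, passed limma's unadjusted threshold of 0.05, a share close to the 5.99% of all genes that did. Besides Cdkn1b, the genes lower on all 3 arrays were Mcm5, Cdc45l, Kif11 and Plk1, which makes 5 of 47, where 12.6% of all genes were lower on all 3. Cdkn1c had 0.10, 0.07 and -0.39, with a mean of -0.07 ± 0.27 that was within the spread between arrays.

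**Figure D4:**
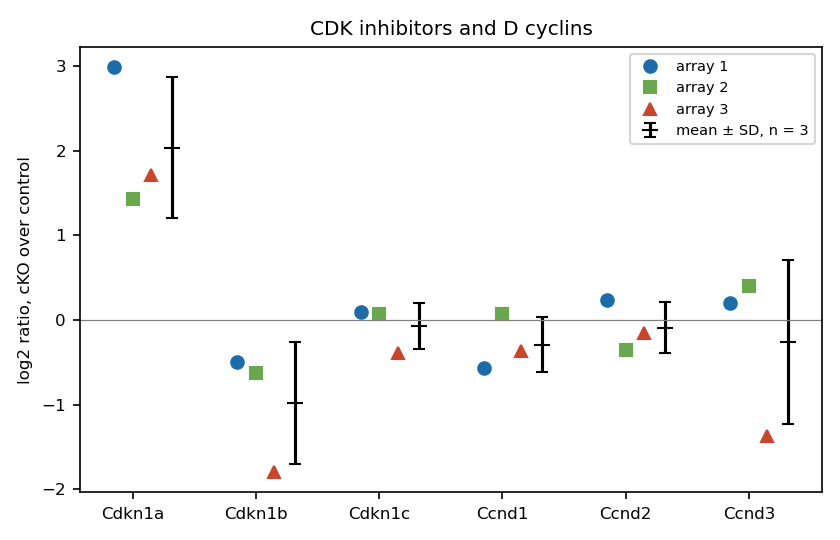
Log2 ratio of cKO over control (vertical axis) for the 3 CDK inhibitors and 3 D cyclins on arrays 1, 2 and 3 (coloured points), with the mean and SD over the 3 arrays in black. Cdkn1a lies above 0 on every array and Cdkn1b below 0 on every array, and the other 4 genes have points on both sides of 0.

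The D cyclins, which pair with Cdk4 and Cdk6, had small means and no common pattern. Ccnd2, the D cyclin that granulosa cells need in order to divide in the mouse, had 0.24, -0.35 and -0.15, with a mean of -0.09 ± 0.30. Its 2 further probes gave -0.03, -0.30 and 0.16, and 0.26, -0.03 and -0.23. Ccnd1 had -0.57, 0.07 and -0.37 on 10 replicate spots, with a mean of -0.29 ± 0.33. Ccnd3 had 0.20, 0.40 and -1.37, with a mean of -0.26 ± 0.97, and its signal on array 3 was 3178 in the cKO pool, against 8211 in the control pool. None of the 3 was lower on arrays 1 and 2 and higher on array 3, and none passed (limma, adjusted p = 1.0 for each).

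The counts of the whole set depended on array 3. Without array 3, 44 of the 47 genes had 1 sign on both remaining arrays, 41 of them lower, where 37.8% of all genes were lower on arrays 1 and 2. In that fit 25 of 47 passed limma's unadjusted threshold of 0.05, 24 of them lower in cKO, where 18.4% of all genes passed it in either direction. None of the 47 passed the adjusted threshold there, the lowest being adjusted p = 0.135. The median of the 41 gene means was -0.58 without array 3, 0.02 without array 2 and 0.05 without array 1. Arrays 2 and 3 shared a slide, and the part of the slide in the reversal was not tested.

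Further genes of the same processes, not among the 47, were read from 3 lists. Of 33 further replication genes, all were tested, the medians were -0.31, -0.18 and 0.73 on arrays 1 to 3, and 25 (75.8%) were lower on arrays 1 and 2 and higher on array 3. Of 42 further mitosis genes, 40 were tested, the medians were -0.61, -0.26 and 0.52, and 29 (72.5%) showed that pattern. Of 41 genes of cell cycle control, 40 were tested, the medians were -0.14, -0.19 and 0.34, and 14 (35.0%) showed it. The 3 genes not tested were Dlgap5 and Fam64a, which no probe carries under these names, and Cdkn2a, which was too dim. None of the 113 genes tested passed (limma, adjusted threshold). Of all genes tested, 25.2% showed the pattern, so the share in the control list was closer to that of all genes than those of the other lists. No difference between the lists was tested.

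Regulators differed from each other. E2f1, an activating E2F factor, was lower on every array, with -0.78, -0.56 and -0.35 (mean -0.56, limma, adjusted p = 0.798). Mybl2, which encodes B-MYB, was slightly lower on every array, with -0.17, -0.22 and -0.25. Foxm1 had -0.59, 0.12 and 0.65, closer to the mitosis genes. Wee1, the kinase that holds Cdk1 inactive and a known target of the clock in mouse liver, had 0.32, -0.79 and -0.30 and no common sign. Trp53, an activator of Cdkn1a, had 0.67, 0.07 and -0.80, and Myc, a driver of proliferation, had -0.20, 0.38 and -0.03. Gadd45a, another growth arrest gene, was higher on every array at 0.58, 0.19 and 0.36, as was Ccng2, which encodes cyclin G2, at 0.49, 0.22 and 1.37. Tfdp1, which encodes a partner of E2F factors, was higher on every array as well, with a mean of 0.14. Gadd45b (0.09, -0.64 and 0.23), Gadd45g (-0.06, 0.47 and -0.26) and Ccng1 (0.46, -0.34 and 0.17) had mixed signs. Fzr1 was lower on every array, with -0.21, -0.03 and -1.05. Of the 40 control genes tested, 4 were higher and 3 lower on every array, against 11.5% and 12.6% of all genes. In the further mitosis list, Zwint (mean 0.49), Anln (0.28) and Bub3 (0.23) were higher on every array, and Kif15 (-0.55) and Pttg1 (-0.37) lower, none passing the test. In the further replication list Tk1 alone had 1 sign on every array, with a mean of -0.08.

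Promoter sequence is shown because the S phase and mitosis genes shared a sign on each array and are known to be switched on through different elements. RefSeq windows of 300 bases, from 250 before to 50 after the annotated start on GRCm38.p6, were given for 38 of the 47 genes. An E2F element was sought as any of the spellings TTTCCCGC, TTTCGCGC, TTTGCCGC and TTTGGCGC. A CHR element was sought with the spelling TTTGAA, or else with the spelling TTCGAA. The CCAAT box was sought by its name's letters. The E-box, which BMAL1 binds together with CLOCK, was sought with the spelling CACGTG. Every search covered both strands. E2F matches stood in 5 of 11 S phase genes (45.5%) and in 3 of 24 mitosis genes (12.5%), against 2.60% of all 27025 genes with a window. CHR matches stood in 3 of 11 S phase genes (27.3%) and 18 of 24 mitosis genes (75.0%), against 21.7% of all. CCAAT boxes stood in 81.8% and 87.5%, against 41.1% of all. E-boxes stood in 0 S phase genes and 1 mitosis gene, Ttk, against 8.09% of all. Matches of 1 motif overlapped each other in Mcm5 and Mcm6, and matches of different motifs overlapped in Mcm7.

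The windows of Mcm6 and Mcm5, which differ in their swing, and of Cdk1 and Ccnb2, which share it, show these elements, with E2F and CHR matches in capitals. Mcm6 lies at chr1:128359656-128359955 on the minus strand, Mcm5 at chr8:75109259-75109558 on the plus strand, Cdk1 at chr10:69352863-69353162 on the minus strand and Ccnb2 at chr9:70421505-70421804 on the minus strand.
Mcm6: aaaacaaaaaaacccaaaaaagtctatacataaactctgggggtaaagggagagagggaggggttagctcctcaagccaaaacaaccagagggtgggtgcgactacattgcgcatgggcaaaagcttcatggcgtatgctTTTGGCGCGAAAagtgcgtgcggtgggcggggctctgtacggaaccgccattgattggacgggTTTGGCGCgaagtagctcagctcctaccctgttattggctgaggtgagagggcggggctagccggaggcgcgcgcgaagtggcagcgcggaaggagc
Mcm5: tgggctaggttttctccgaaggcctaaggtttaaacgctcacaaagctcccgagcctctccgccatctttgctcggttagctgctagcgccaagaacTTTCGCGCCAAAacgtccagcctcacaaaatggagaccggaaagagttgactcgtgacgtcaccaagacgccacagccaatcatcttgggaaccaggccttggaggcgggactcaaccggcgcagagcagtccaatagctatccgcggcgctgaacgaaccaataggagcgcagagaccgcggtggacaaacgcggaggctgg
Cdk1: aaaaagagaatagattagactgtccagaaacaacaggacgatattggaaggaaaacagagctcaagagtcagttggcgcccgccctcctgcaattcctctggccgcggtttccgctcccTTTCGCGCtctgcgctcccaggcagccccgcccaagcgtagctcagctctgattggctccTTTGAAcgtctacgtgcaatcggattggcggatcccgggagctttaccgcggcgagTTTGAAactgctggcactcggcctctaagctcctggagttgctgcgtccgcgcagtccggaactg
Ccnb2: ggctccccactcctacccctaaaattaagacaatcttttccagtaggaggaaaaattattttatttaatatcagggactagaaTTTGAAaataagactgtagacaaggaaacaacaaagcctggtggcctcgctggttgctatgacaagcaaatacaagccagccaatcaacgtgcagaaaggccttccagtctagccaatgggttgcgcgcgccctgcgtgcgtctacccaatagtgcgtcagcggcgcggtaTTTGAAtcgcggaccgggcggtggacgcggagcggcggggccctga
Mcm6 and Mcm5 both hold E2F matches, although only Mcm6 was higher on array 3, and Cdk1 holds both kinds of element. The 8 genes with an E2F match had median ratios of -0.36, -0.32 and 0.69 on arrays 1 to 3, against -0.60, -0.44 and 0.56 for 27 without. The 21 genes with a CHR match had -0.55, -0.42 and 0.54, against -0.60, -0.40 and 0.66 for 14 without. The widest of these gaps was between genes with and without an E2F match on array 1, and none of the gaps was tested. A match of letters is a description and not a bound site.

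Markers of granulosa cells and oocytes were read beside the block. In RNA of a whole ovary, fewer cells of a type and less RNA per cell cannot be told apart. The 10 granulosa markers had medians of -0.45, -0.22 and 0.20 on arrays 1 to 3, with 8, 7 and 5 of the 10 lower in cKO. The pattern lower, lower, higher was shown by 4 of the 10 (40.0%), against 25.2% of all genes tested. These were Inhbb, which encodes an activin and inhibin subunit, with -1.67, -0.72 and 1.28, and Inhba, Foxl2 and Nr5a2, with 0.80, 0.46 and 0.54 on array 3. Inha and Fshr were lower on every array, with -0.48, -0.29 and -0.72 for Inha and -0.34, -0.21 and -0.07 for Fshr. Amh had 0.23, -0.45 and -1.28, Amhr2 had 0.70, 0.24 and -0.24 and Hsd17b1 had -0.71, 0.05 and -0.26. Cyp19a1, the aromatase that makes oestradiol, had -0.14, 0.24 and 2.25. The 14 oocyte markers had medians of -0.29, -0.36 and 0.42, with 12, 10 and 5 lower, and 7 of the 14 showed the pattern.

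Markers of stromal and immune cells had medians above 0 on arrays 1 and 2 and lower on array 3. The 8 smooth muscle markers had medians of 0.19, 0.99 and -1.21, and all 8 were lower on array 3. The 12 macrophage markers tested had 0.90, 0.93 and -0.30, the 11 lymphocyte markers 0.39, 0.42 and -0.09 and the 8 fibroblast markers 0.51, 0.94 and 0.07. Surface epithelium (1.15, -0.41 and -0.50) and oviduct epithelium markers (1.46, -0.96 and 0.29) were high on array 1. Luteal markers had medians of 0.15, -0.26 and -0.25, theca markers 0.05, 0.61 and -0.65, endothelial markers -0.13, 0.07 and -0.21 and erythroid markers -0.27, 0.28 and -0.44. The part of these markers in the swing of the cell cycle genes was not tested.

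**Figure D5:**
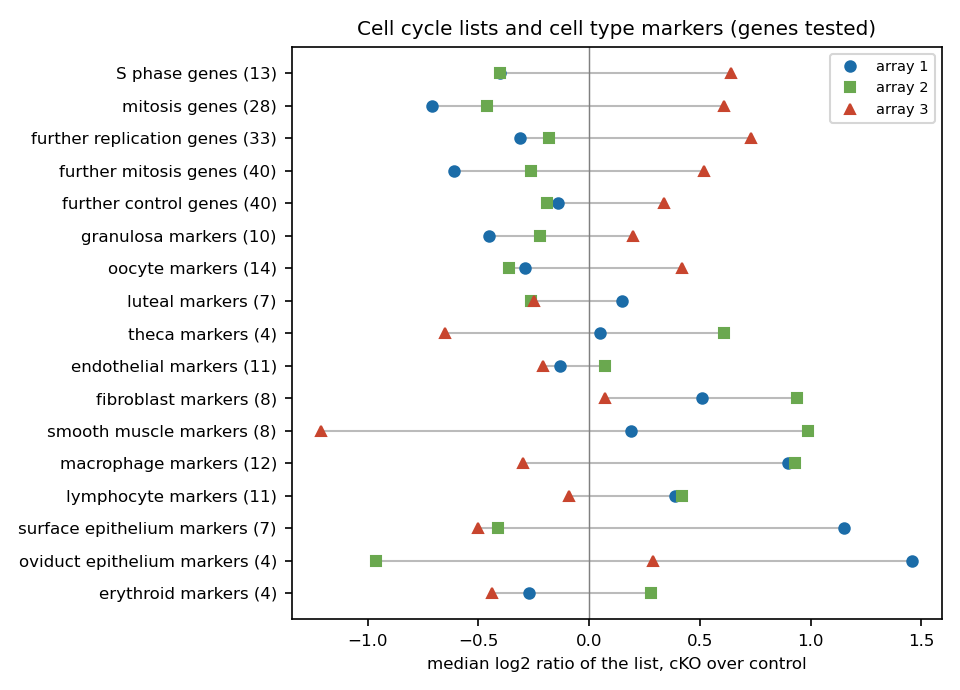
Median log2 ratio of cKO over control (horizontal axis) on arrays 1, 2 and 3 for each cell cycle list and each list of cell type markers, with the number of genes tested in brackets. All cell cycle lists, granulosa markers and oocyte markers have array 3 right of 0 and arrays 1 and 2 left of it. Smooth muscle, macrophage, lymphocyte and theca markers have the opposite order.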

How the data were processed

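RNA of whole ovaries was measured on 3 Agilent 2-colour arrays, each with a cKO pool in cy3 and a control pool in Cy5, 3 animals a pool, per the labels. Arrays 1 to 3 carried cKO pools 4, 5 and 7 and control pools 2, 3 and 1, and each array was 1 replicate. In the labels of arrays 2 and 3 a genotype entry ends in the number of the array, and their titles set the groups. The scanner software was Agilent Feature Extraction 9.1.3.1, which corrected the spot intensity values for local background and dye-normalised them, per the file headers. The log10 ratios deposited with them have control (red) on top and cKO (green) below, and the series' value table repeats them exactly (largest difference 0).

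Each ratio was multiplied by -1 and turned into log2. Outlier spots (13, 4 and 0) were left out, and replicate spots were averaged over 43379 spots of 41174 probes. A probe was kept where all 3 arrays had it well above background for cKO RNA, or all 3 for control RNA, which left 26418, and each gene was read by its brightest probe. Between 62.9% and 69.1% of spots were well above background. The mean over 3 arrays was tested against 0 with limma 3.58.1 under R 4.3.3 (lmFit and eBayes, two-sided), adjusted by Benjamini-Hochberg for the 17892 genes tested and called at 0.05. The fit was tested on simulated data with independent noise in each gene. Those data held no movement that genes share on an array. P-values reflect the spread between 3 pools, and between fewer where an array was left out or the slide was a block. Alternatives were normexp with an offset of 50 and loess, other filters, the mean of probes, scaled arrays, the slide as a block and leaving out each array.

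The genes, groups, marker lists and the rule for genes given in full (those past a threshold, the D cyclins and inhibitors, and the 3 highest and 3 lowest means of each group) were chosen with earlier results of these data known. Genes outside that rule, the comparison of levels between pools of 1 genotype, the motif search and the choice of printed sequences were chosen after values were seen. Symbols follow the array, and 47 of 47 matched a RefSeq gene, 1 by a synonym. Probe sequences are those of the deposited files and promoters those of RefSeq on GRCm38.p6. Positions of probes in the genome were not used here.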

Additional observations from a re-analysis of the deposited data

How the results depend on the processing

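The number of the 47 genes past the adjusted threshold was 0 and became 1 with the slide as a block and 0 to 1 when 1 array was left out. The gene was Cdkn1a in both cases, and none of the 113 further cell cycle genes passed under any setting run. The number of all genes past it was 54 (28 higher and 26 lower), and became 7 with scaled arrays (6 higher and 1 lower), 227 with the slide as a block, 28 to 270 when 1 array was left out and 0 with no filter on dim probes, where limma's unadjusted threshold passed 1844 of 28090 genes. The number of the 47 genes past the unadjusted threshold was 2, and became 5 with normexp and loess, 1 with no filter and 2 to 25 when 1 array was left out, with 25 without array 3. Of all genes, limma's unadjusted threshold passed 5.99% in the main fit, 12.3% with normexp and loess, 6.56% with no filter and 18.4% without array 3. The number with 1 sign on every array was 6, and 7 to 44 when 1 array was left out. Leaving out an array can only keep or raise this count, because fewer signs have to match. Of all genes, 12.6% were lower on all 3 arrays and 37.8% were lower on arrays 1 and 2. For the gene means, the S phase median minus the mitosis median was -0.01, and became 0.15 with normexp and loess and -0.15 to 0.18 when 1 array was left out. The group medians kept within the spread between arrays, at -0.45 to 0.14 for S phase and -0.59 to 0.11 for mitosis when 1 array was left out.

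Of 162 values of the 18 genes given in full under alternatives, 130 kept their direction and their side of the threshold, 2 (Cdkn1a) newly passed and 30 changed sign; no change of sign was in Cdkn1a, Cdkn1b, Ccnd1, Cenpf or Kif11. With normexp and loess the mean became 0.23 for Cdkn1c, 0.03 for Ccne1, 0.08 for Rrm2, 0.16 for Mcm3, -0.12 for Rrm1, -0.30 for Ncapd2 and -0.27 for Aurkb. With the mean of all passing probes it became -0.17 for Ncapd2 and -0.06 for Mki67. With scaled arrays it became -0.05 for Rrm1, -0.01 for Ncapd2, -0.08 for Mki67 and -0.12 for Aurkb. With the slide as a block it became -0.05 for Rrm1, -0.02 for Ncapd2, -0.05 for Mki67 and -0.18 for Aurkb. When 1 array was left out, the means ranged from -1.22 to -0.57 for Cdkn1b, -0.16 to 0.09 for Cdkn1c, -0.25 to 0.04 for Ccnd2, -0.58 to 0.30 for Ccnd3, -0.73 to 0.02 for Rrm2, -0.63 to 0.06 for Pcna, -0.37 to 0.19 for Mcm3, -0.24 to 0.17 for Rrm1, -0.03 to 0.77 for Mcm6, -0.74 to 0.08 for Ccnb2, -0.11 to 0.18 for Ncapd2, -0.44 to 0.33 for Mki67 and -0.50 to 0.56 for Aurkb. The cause was not tested.

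The number of arrays limits the precision, and no dye swap was made. The pools are paired within each array's ratio, which the test used, so no further replicate block was fitted.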
